A study of Mus musculus with 16 samples.

Results

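The receptors for the mitogens that sustain cultured neural stem/progenitor cells (NSPCs), together with a set of genes that their signal induces, were followed in NSPCs of the mouse subventricular zone (SVZ). The 10 genes were chosen by name and role: the EGF receptor *Egfr*, the FGF receptors *Fgfr1*, *Fgfr2* and *Fgfr3*, the Sprouty inhibitors *Spry1*, *Spry2* and *Spry4*, the ERK phosphatase *Dusp6* and the ETS transcription factors *Etv4* and *Etv5*. They are 10 of 30386 genes in the table, and all 10 were among the 12533 genes tested (more than 1 CPM in at least 4 of 16 samples, where CPM is the gene's count scaled to the library's total of assigned reads). *GFP*-NSPCs (8 samples) expressed a control *GFP* transgene and *Dbx2*-NSPCs (8 samples) a mouse *Dbx2* transgene, both constitutively from a plasmid and under puromycin selection. All cells came from the SVZ of young adult mice (3 months old, C57BL/6 J/Babr) and grew as non-adherent cultures in medium that supplied EGF, FGF2 and heparin to both groups. The transgenes were carried by 2 pairs of bulk-cultured lines with 4 experiments each, so p-values measure the spread between cultures of few lines and not between animals. The labels number the samples 1 to 8 in each group but do not say which line a number belongs to. Samples numbered 1 to 4 and samples numbered 5 to 8 differed in many genes within each group. For this reason each of the 10 genes is also described within these sets. The split was thus taken from these data, and a p-value between the sets is not independent evidence that they differ. Values within a set come from 1 model of all 16 samples, which shares the estimate of the spread, and a fit of the set's 8 samples alone is given where it changes a call.

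EGF and FGF bind receptor tyrosine kinases that signal through Ras, Raf, MEK and ERK, and this signal keeps SVZ progenitors dividing in culture. ERK signaling induces its own restraints, among them the Sprouty proteins and the ERK phosphatase DUSP6, and the ETS factors *Etv4* and *Etv5*, so the transcripts of these genes are widely used as readouts of the pathway. Transcript levels do not measure receptor protein or ERK phosphorylation.

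Libraries held 1803928 to 3293285 assigned reads, so a count of 3 reads corresponded to between 0.911 and 1.66 CPM. *Dbx2* itself ranged from 30.7 to 171 CPM (median 64.4) in *GFP*-NSPCs and from 114 to 232 CPM (median 147) in *Dbx2*-NSPCs, and the ranges overlapped. Its log2 fold change was 1.26 ± 0.32 (SE, limma, adjusted p = 0.0098), with 0.54 within numbers 1 to 4 and 1.99 within numbers 5 to 8. When numbers 1 to 4 were fitted alone it missed the threshold (limma, adjusted p = 0.089). Whether the transgene transcript carries the 3′ end counted here is not given in the sources used here. Of 10 NSPC marker genes fixed as a list, 9 were tested, none was called higher and 3 were called lower (*Fabp7*, *Pax6* and *Msi1*), and the list summed to between 6183 and 6941 CPM in *GFP*-NSPCs and between 5280 and 6424 CPM in *Dbx2*-NSPCs; *Prom1*, a surface marker of NSPCs, did not exceed 0.65 CPM in any sample. Of 7 astrocyte genes, *Gfap* was higher in *Dbx2*-NSPCs (log2 fold change 3.31) and *Aldh1l1* and *Slc1a3* were lower (-1.20 and -1.03), with sums of 713 to 2488 CPM against 522 to 1422 CPM and *Gjb6* at 0 throughout. Microglial genes summed to at most 2.45 CPM, with *Aif1* and *Tyrobp* at 0. Elsewhere, *Map2* of 7 neuronal genes was lower and *Ccdc153* of 4 ependymal genes was higher. Beside these calls of marker genes, 8.03% of all genes tested were called higher and 7.78% lower. Whether the state of these markers has a part in the results on the receptors was not tested, and fewer cells of a type cannot be told apart from less RNA per cell in these bulk samples.

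The promoter windows of 3 genes are shown, those of the gene that was called over all samples (*Egfr*) and of the 2 with the strongest opposite changes within numbers 1 to 4 by adjusted p (*Spry2* and *Etv5*). They are RefSeq windows (build GRCm38.p6) from 250 bases before to 50 bases after the annotated start, written 5′ to 3′ on the gene's strand, and capitals mark a match to the ETS core CCGGAAG on either strand.
Egfr chr11:16751953-16752252 (plus strand): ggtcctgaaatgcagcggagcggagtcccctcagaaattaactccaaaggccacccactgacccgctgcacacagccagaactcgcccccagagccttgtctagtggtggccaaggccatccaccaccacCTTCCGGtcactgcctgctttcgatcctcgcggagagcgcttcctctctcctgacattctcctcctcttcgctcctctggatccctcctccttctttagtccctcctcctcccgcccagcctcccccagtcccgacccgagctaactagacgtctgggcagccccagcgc
Spry2 chr14:105896770-105897069 (minus strand): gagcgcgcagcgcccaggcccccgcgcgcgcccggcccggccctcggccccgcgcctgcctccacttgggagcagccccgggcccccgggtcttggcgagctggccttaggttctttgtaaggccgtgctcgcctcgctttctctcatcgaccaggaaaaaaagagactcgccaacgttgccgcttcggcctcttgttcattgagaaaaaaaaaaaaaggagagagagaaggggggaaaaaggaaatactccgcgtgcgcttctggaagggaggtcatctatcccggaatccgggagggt
Etv5 chr16:22439521-22439820 (minus strand): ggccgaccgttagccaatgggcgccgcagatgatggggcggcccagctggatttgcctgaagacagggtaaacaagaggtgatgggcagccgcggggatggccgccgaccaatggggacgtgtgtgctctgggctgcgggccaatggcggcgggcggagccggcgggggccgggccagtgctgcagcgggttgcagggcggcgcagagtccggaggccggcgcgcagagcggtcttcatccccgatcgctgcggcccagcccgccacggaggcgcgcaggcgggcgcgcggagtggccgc
For *Etv5* RefSeq holds a second window, chr16:22438319-22438618, and the one further upstream on the gene's strand is shown. No window of *Fgfr1*, *Spry4* or *Etv4* was searched, so whether these genes hold a match was not tested. The windows of the other 7 of the 10 genes were searched. The only ETS match among them was the one in the *Egfr* window, which reads CTTCCGG on the gene's strand and starts at base 131 of 300, and 8.86% of the 32851 promoter windows of the genome hold this motif. The homeodomain core TAATTA, its own reverse complement, was found in none of the windows of these 7 genes and in 5.29% of all windows. A match is a description of the letters and not a binding site.

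Over all 16 samples *Egfr* was the only one of the 10 genes to pass the test, and it was lower in *Dbx2*-NSPCs. This is 1 of 10 members (10%), beside 15.8% of all genes tested (8.03% called higher and 7.78% called lower). The groups overlapped in all 10 members, whereas 3.41% of all genes tested had groups that did not overlap. The median log2 fold change of the members was -0.33, beside -0.02 over all genes tested, with 4 members above 0 and 6 below. With the replicate number as a block, 5 members passed the test (*Egfr*, *Spry2* and *Spry4* lower, *Etv4* and *Etv5* higher), beside 21.7% of all genes tested.

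**Figure D1:**
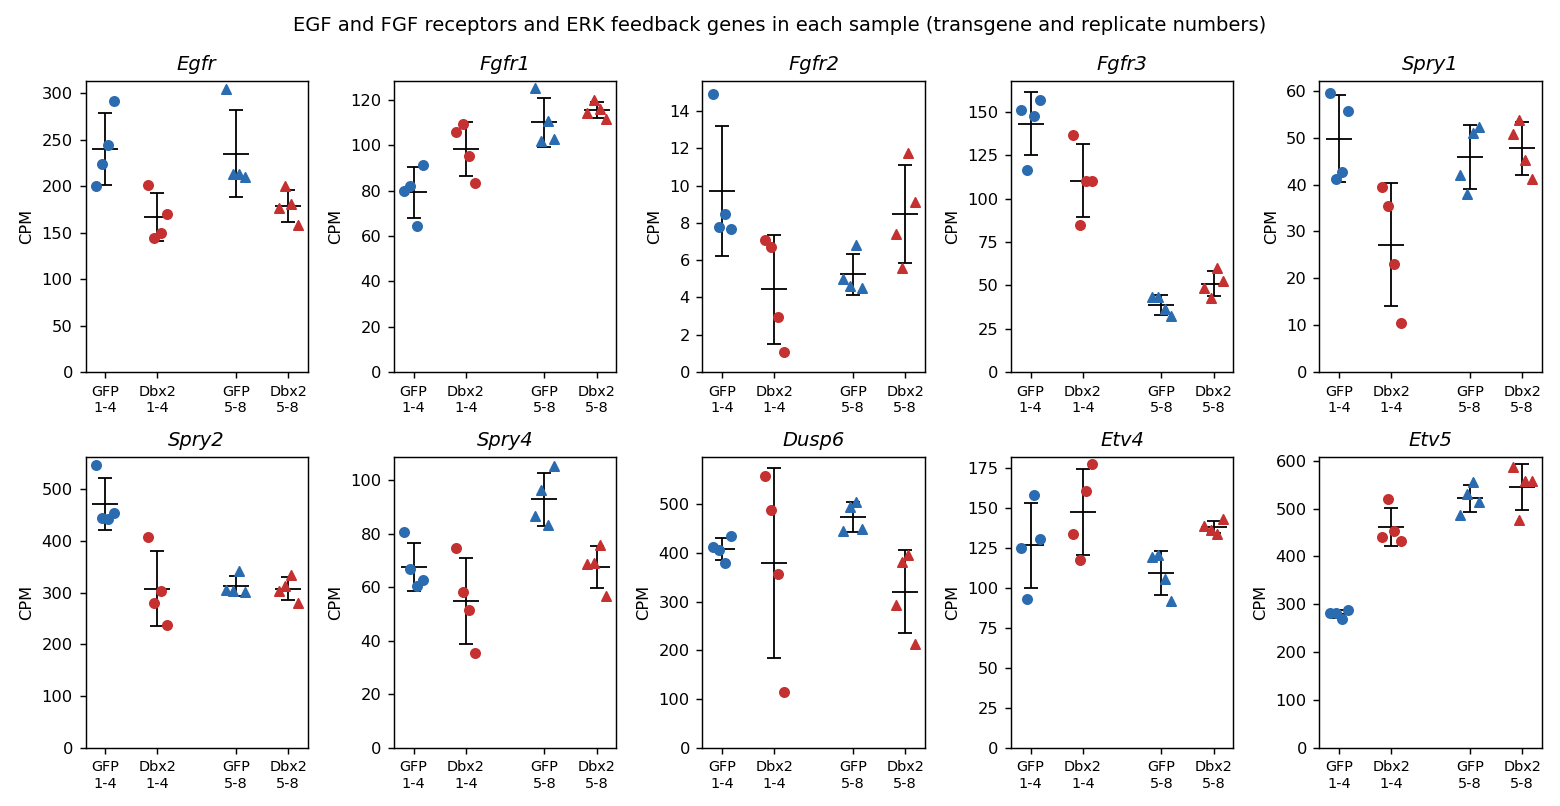
Level of each of the 10 genes in CPM (y axis, starting at 0) in each sample, split by transgene (blue, *GFP*; red, *Dbx2*) and by replicate number (circles, 1 to 4; triangles, 5 to 8); black marks give the mean ± SD (n = 4). The *Dbx2*-NSPCs numbered 5 to 8 reach at most 200.04 CPM for *Egfr*, below the lowest *GFP*-NSPC of that set at 209.73 CPM, and *Fgfr3* separates the sets within both transgenes.

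*Egfr*, which encodes the receptor for EGF and TGFα (chr11:16752203-16918158, plus strand, GRCm38), ranged from 200.2 to 305 CPM (median 218) in *GFP*-NSPCs and from 144 to 201.3 CPM (median 173) in *Dbx2*-NSPCs. The groups met only at their edges: *GFP*-NSPC replicate 1 at 200.22 CPM lay just under *Dbx2*-NSPC replicate 1 at 201.31 CPM. The mean was 237 ± 39.7 CPM (SD, n = 8) against 173 ± 21.4 CPM (SD, n = 8), a log2 fold change of -0.45 ± 0.10 (SE, adjusted p = 0.0043 by limma) or 0.731-fold. Between samples of the same number it was lower in *Dbx2*-NSPCs in 7 of 8, and the difference in the remaining one (number 1) was 0.01 on the log2 scale. The decrease passed the test within both sets, at -0.52 ± 0.13 within numbers 1 to 4 (limma, adjusted p = 0.0053) and -0.38 ± 0.13 within numbers 5 to 8 (limma, adjusted p = 0.041). The difference between these 2 values, 0.14 with a 95% confidence interval from -0.24 to 0.53, did not pass the test. With 1 library left out it ranged from 0.05 to 0.28. Within numbers 5 to 8, *GFP*-NSPC replicate 5 stood at 304.8 CPM, beside 209.7 to 212.8 CPM in the other *GFP*-NSPCs of the set. Between same-numbered samples of the set the log2 difference was -0.79 for number 5 and -0.09, -0.23 and -0.41 for numbers 6 to 8. Whether the call within that set holds without this library was not tested. *Egfr* did not pass the test between the sets within *GFP*-NSPCs (-0.03) or within *Dbx2*-NSPCs (0.11).

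The antisense transcript *Egfros*, which overlaps *Egfr* away from its 3′ end, was at 0 in the table. Leaving out each library in turn kept the *Egfr* fold change between -0.48 and -0.40 on the log2 scale, and it passed the test each time.

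*Fgfr1*, the receptor for FGF2 most often described in neural progenitors (chr8:25513654-25575718, plus strand), ranged from 64.2 to 125 CPM (median 96.6) in *GFP*-NSPCs and from 83.2 to 120 CPM (median 111) in *Dbx2*-NSPCs. Its log2 fold change was 0.19 ± 0.12 (SE, limma, adjusted p = 0.30), with a 95% confidence interval from -0.06 to 0.44. Within numbers 1 to 4 the means were 79.3 ± 11.2 and 98.5 ± 11.9 CPM (SD, n = 4 each), and the log2 fold change of 0.31 missed the threshold (limma, adjusted p = 0.056). It passed when *Dbx2*-NSPC replicate 4, the lowest of its set, was left out (0.39, limma, adjusted p = 0.016), an alternative added after the data were seen. Within numbers 5 to 8 the means were 110 ± 10.8 and 115 ± 3.45 CPM. In *GFP*-NSPCs *Fgfr1* was higher in numbers 5 to 8 than in numbers 1 to 4 by 0.48 ± 0.12 on the log2 scale (limma, adjusted p = 0.0027).

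*Fgfr3*, an FGF receptor also found in astrocytes and radial glia (chr5:33721674-33737068, plus strand), differed between the sets of numbers more than any other member. In *GFP*-NSPCs it was at 151, 116, 148 and 157 CPM in numbers 1 to 4 and at 43.2, 43.5, 36.2 and 32.1 CPM in numbers 5 to 8. In *Dbx2*-NSPCs it was at 137, 85.0, 110.1 and 110.2 CPM in numbers 1 to 4 and at 48.6, 42.9, 60.04 and 52.3 CPM in numbers 5 to 8. Numbers 5 to 8 were therefore below numbers 1 to 4 in both groups without overlap. The gaps in *GFP*-NSPCs and *Dbx2*-NSPCs were 1.87 ± 0.14 and 1.10 ± 0.14 on the log2 scale (limma, adjusted p = 3.6e-10 and 4.6e-06). The sets were chosen because they lay apart in these data, so these p-values are not independent support for the gaps. They may also rest on repeat cultures of few lines. No difference between the transgenes was detected over all samples, with a log2 fold change of 0.004 and a 95% confidence interval from -0.76 to 0.77. That fit had no term for the sets, so the gap between them widened the interval. Blocking on replicate number left the fold change at 0.004 and narrowed the interval to between -0.30 and 0.31. The value within numbers 1 to 4 was -0.38 and that within numbers 5 to 8 was 0.39, neither past the threshold (limma, adjusted p = 0.063 and 0.057). The difference between them, 0.77 ± 0.20, passed the test (limma, adjusted p = 0.014).

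*Fgfr2* (annotated at chr7:130162451-133123350, minus strand, a span that includes other genes away from its 3′ end) was close to the detection limit, from 4.52 to 14.9 CPM in *GFP*-NSPCs and from 1.08 to 11.7 CPM in *Dbx2*-NSPCs. The highest sample held 37 reads and the lowest, *Dbx2*-NSPC replicate 4, held 3 reads. Over all samples the log2 fold change was -0.32 ± 0.35 (SE, limma, adjusted p = 0.60). Within numbers 1 to 4 all *Dbx2*-NSPCs (7.06, 6.68, 2.93 and 1.08 CPM) lay below all *GFP*-NSPCs (14.91, 7.76, 8.47 and 7.66 CPM), with a log2 fold change of -1.25 ± 0.39 (adjusted p = 0.023 by limma). Without *Dbx2*-NSPC replicate 4 this became -0.78 and missed the threshold (limma, adjusted p = 0.10), as it did when the 8 samples numbered 1 to 4 were fitted alone (-1.25, limma, adjusted p = 0.094). Within numbers 5 to 8 the value was 0.61 (limma, adjusted p = 0.29), and the difference between the sets was 1.86 ± 0.55 (limma, adjusted p = 0.029). That difference missed the threshold when any of 6 single libraries was left out.

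Among the Sprouty genes, whose products restrain receptor tyrosine kinase signaling upstream of ERK, none passed the test over all samples, and *Spry2* and *Spry4* were called lower when the replicate number was a block. *Spry4* was lower in the *Dbx2*-NSPC of each of the 8 numbers, by between 0.11 and 0.89 on the log2 scale. It ranged from 60.6 to 105 CPM (median 82.0) in *GFP*-NSPCs and from 35.5 to 75.8 CPM (median 63.5) in *Dbx2*-NSPCs. The log2 fold change was -0.40 ± 0.15 (SE, limma, adjusted p = 0.083), and with the block the standard error was 0.10 (limma, adjusted p = 0.015). Within numbers 5 to 8 all *Dbx2*-NSPCs (68.6, 69.0, 75.8 and 56.7 CPM) lay below all *GFP*-NSPCs (86.4, 96.3, 83.3 and 105 CPM), a log2 fold change of -0.46 ± 0.16 (adjusted p = 0.046 by limma). Within numbers 1 to 4 the value was -0.34 (limma, adjusted p = 0.15), and -0.15 without *Dbx2*-NSPC replicate 4. The difference between the sets was -0.12, with a 95% confidence interval from -0.59 to 0.35.

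*Spry2* (chr14:105891947-105896819, minus strand) passed the test as lower in *Dbx2*-NSPCs within numbers 1 to 4, and the difference of the fold change between the sets passed as well. In numbers 1 to 4 the *GFP*-NSPCs were at 548, 444, 443 and 454 CPM and the *Dbx2*-NSPCs at 409, 280.4, 303 and 238 CPM, without overlap. In numbers 5 to 8 the *GFP*-NSPCs were at 306, 304, 343 and 302 CPM and the *Dbx2*-NSPCs at 303, 312, 334 and 279.9 CPM. All 3 other combinations of transgene and set thus had means close to each other (307 ± 72.7, 314 ± 19.5 and 307 ± 22.3 CPM, SD, n = 4), and the *GFP*-NSPCs numbered 1 to 4 stood above them at 472 ± 50.4 CPM. The log2 fold change was -0.64 ± 0.12 within numbers 1 to 4 (limma, adjusted p = 0.00032) and -0.03 ± 0.12 within numbers 5 to 8 (limma, adjusted p = 0.90), and the difference was 0.61 ± 0.17 (limma, adjusted p = 0.019). Over all samples it was -0.34 ± 0.13 (SE, limma, adjusted p = 0.089), and with the block it passed the test (adjusted p = 0.036). It was also called over all samples without *Dbx2*-NSPC replicate 1 (-0.40, limma, adjusted p = 0.042), and the difference between the sets missed the threshold without *Dbx2*-NSPC replicate 7 (0.57, limma, adjusted p = 0.0503).

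*Spry1* (chr3:37639947-37644598, plus strand) was also apart within numbers 1 to 4, where the *GFP*-NSPCs were at 59.6, 41.3, 42.7 and 55.6 CPM and the *Dbx2*-NSPCs at 39.5, 35.5, 23.1 and 10.4 CPM. There it changed by -1.01 ± 0.26 on the log2 scale (limma, adjusted p = 0.0059), and -0.62 without *Dbx2*-NSPC replicate 4, the lowest sample, still past the threshold (limma, adjusted p = 0.012). When the 8 samples numbered 1 to 4 were fitted alone, the call was lost (limma, adjusted p = 0.062). Within numbers 5 to 8 the means were 45.8 ± 6.86 and 47.7 ± 5.61 CPM (SD, n = 4 each) and the value was 0.06 (limma, adjusted p = 0.90). The difference between the sets, 1.07 ± 0.36, missed the threshold (limma, adjusted p = 0.065) and passed it with the block (limma, adjusted p = 0.048). Over all samples the log2 fold change was -0.47 ± 0.25 (SE, limma, adjusted p = 0.22).

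*Dusp6*, whose product dephosphorylates ERK in the cytoplasm (chr10:99263231-99267489, plus strand), was even among *GFP*-NSPCs and uneven among *Dbx2*-NSPCs. It ranged from 379.9 to 505 CPM (median 440.4) in *GFP*-NSPCs and from 114 to 559 CPM (median 369) in *Dbx2*-NSPCs, with SDs of 42.9 and 143 CPM (n = 8 each). In *Dbx2*-NSPCs it was at 559, 488, 357 and 114 CPM in numbers 1 to 4 and at 294, 381, 395 and 213 CPM in numbers 5 to 8. The 4 samples of the second set were all below the 4 *GFP*-NSPCs of that set (445, 495, 505 and 450.3 CPM). Over all samples its log2 fold change was -0.46 ± 0.23 (SE, limma, adjusted p = 0.19), with a 95% confidence interval from -0.94 to 0.02. Within numbers 5 to 8 it was -0.60 ± 0.29 (limma, adjusted p = 0.15) with a spread shared across both sets, and it passed the test when those 8 samples were fitted alone (limma, adjusted p = 0.011). Within numbers 1 to 4 it was -0.33, and it turned to 0.17 without *Dbx2*-NSPC replicate 4 (limma, adjusted p = 0.47 in both). Without that library the difference between the sets was -0.77 and passed the test (limma, adjusted p = 0.012), whereas with all libraries it was -0.27 (limma, adjusted p = 0.77).

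*Dbx2*-NSPC replicate 4 held the lowest value of all 16 samples in *Fgfr2*, *Spry1*, *Spry2*, *Spry4* and *Dusp6*. In *Egfr*, *Fgfr1*, *Fgfr3*, *Etv4* and *Etv5* it lay within the range of the other samples or at the upper end, and in *Etv4* it was the highest of all 16 at 178 CPM.

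**Figure D2:**
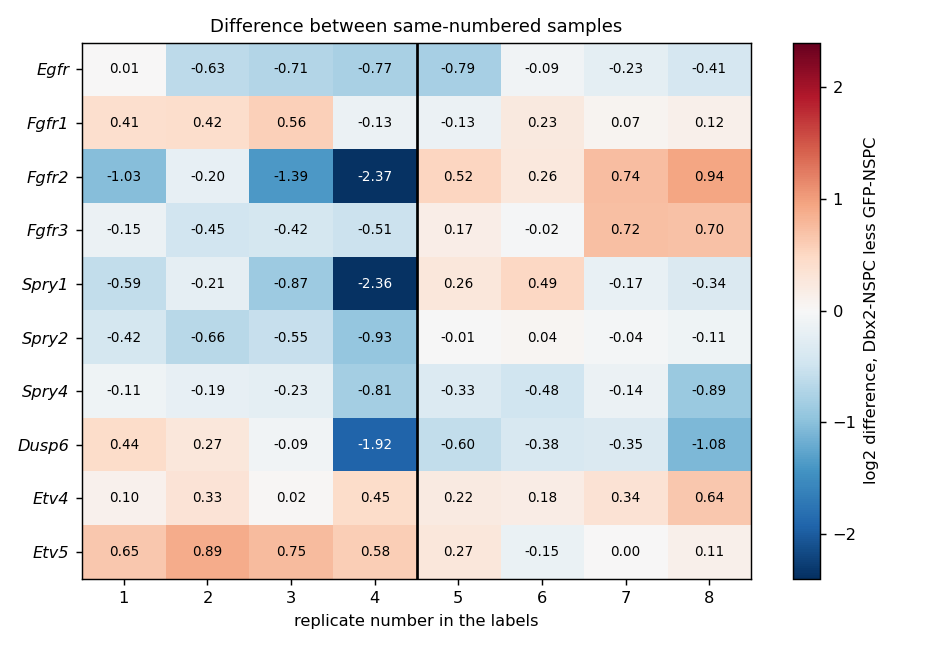
Difference in log2(CPM + 0.5) between the *Dbx2*-NSPC and the *GFP*-NSPC of the same replicate number (columns) for each gene (rows), with the value written in each cell, red above 0 and blue below; the black line divides numbers 1 to 4 from 5 to 8. *Spry4* is below 0 and *Etv4* above 0 in all 8 columns, and number 4 holds the lowest value of the row for *Fgfr2* (-2.37), *Fgfr3*, *Spry1*, *Spry2* and *Dusp6*.

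The ETS factors *Etv4* and *Etv5* had log2 fold changes above 0 over all samples, where those of the Sprouty genes and *Dusp6* lay below 0. Both are transcription factors induced by FGF and EGF signaling. *Etv4* (chr11:101769742-101785371, minus strand) was higher in the *Dbx2*-NSPC of each of the 8 numbers, by between 0.02 and 0.64 on the log2 scale. It ranged from 91.7 to 158 CPM (median 119.8) in *GFP*-NSPCs and from 117 to 178 CPM (median 138) in *Dbx2*-NSPCs. The log2 fold change was 0.28 ± 0.11 (SE, limma, adjusted p = 0.086), and it passed with the block (SE 0.08, limma, adjusted p = 0.019) and without *GFP*-NSPC replicate 3 (0.35, limma, adjusted p = 0.028). In numbers 5 to 8 all *Dbx2*-NSPCs (139, 136, 134 and 143 CPM) lay above all *GFP*-NSPCs (119, 121, 106 and 91.7 CPM), with a log2 fold change of 0.34 ± 0.14 (adjusted p = 0.083 by limma) that passed when those samples were fitted alone (limma, adjusted p = 0.018). The value within numbers 1 to 4 was 0.22 (limma, adjusted p = 0.28), and the difference between the sets was 0.12, with a 95% confidence interval from -0.28 to 0.52.

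*Etv5* (chr16:22381309-22439719, minus strand) was higher in *Dbx2*-NSPCs within numbers 1 to 4, and the difference from numbers 5 to 8 passed the test. In numbers 1 to 4 the *GFP*-NSPCs lay close together at 280.8, 280.7, 269 and 288 CPM and the *Dbx2*-NSPCs at 440.5, 521, 454 and 432 CPM, without overlap. In numbers 5 to 8 the *GFP*-NSPCs were at 487, 529.7, 555 and 514 CPM and the *Dbx2*-NSPCs at 588, 476, 557.1 and 557.1 CPM. The *GFP*-NSPCs numbered 1 to 4 were thus below all 12 other samples, and within *GFP*-NSPCs the second set was higher by 0.90 ± 0.09 on the log2 scale (limma, adjusted p = 1.9e-08). The log2 fold change between transgenes was 0.72 ± 0.09 within numbers 1 to 4 (limma, adjusted p = 1.3e-06) and 0.06 ± 0.09 within numbers 5 to 8 (limma, adjusted p = 0.70), and the difference was -0.66 ± 0.12 (limma, adjusted p = 0.00056). Over all samples it was 0.39 ± 0.16 (SE, limma, adjusted p = 0.11), and it passed with the block (SE 0.11, adjusted p = 0.023).

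**Figure D3:**
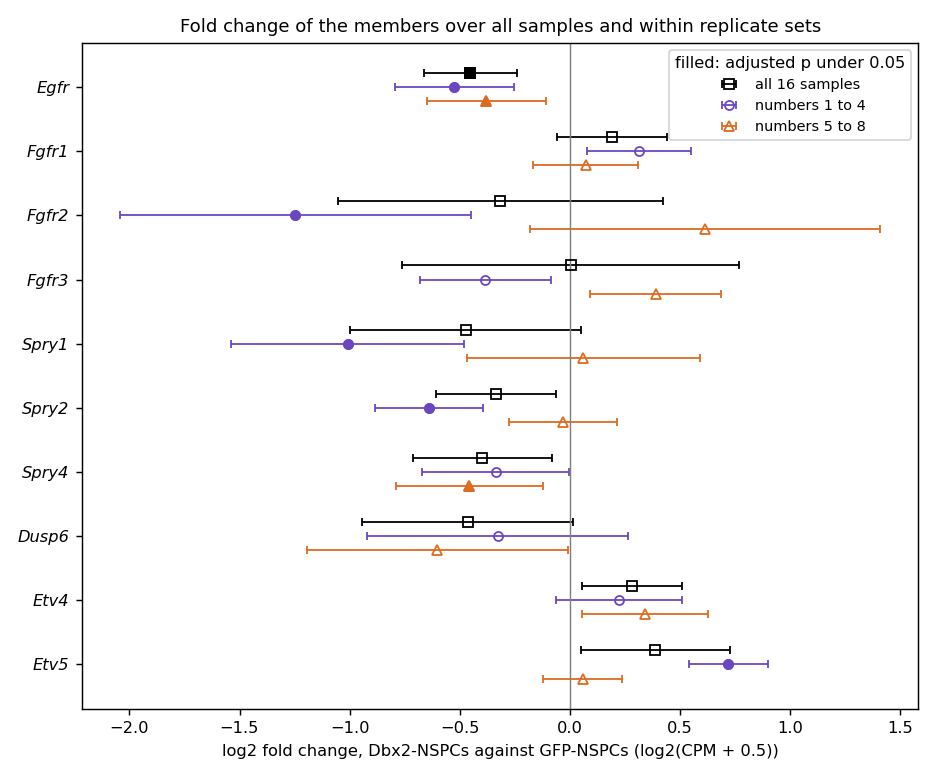
Log2 fold change of *Dbx2*-NSPCs against *GFP*-NSPCs (x axis, on log2(CPM + 0.5)) with its 95% confidence interval for each gene (y axis), over all 16 samples (squares), within numbers 1 to 4 (circles) and within numbers 5 to 8 (triangles); filled symbols have an adjusted p under 0.05. *Egfr* is filled in all 3 rows, and *Etv5* moves from 0.72 within numbers 1 to 4 to 0.06 within numbers 5 to 8.

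Set by set, 5 members passed the test within numbers 1 to 4 (*Egfr*, *Fgfr2*, *Spry1* and *Spry2* lower, *Etv5* higher), beside 20.5% of all genes tested. When these 8 samples were fitted alone 3 passed, without *Fgfr2* and *Spry1*, beside 1950 of all 12533 genes tested. Within numbers 5 to 8, 2 members passed (*Egfr* and *Spry4*, both lower), beside 20.7%. In the fit of these 8 samples alone 4 passed, which added *Dusp6* and *Etv4*, beside 2911 of all 12533 genes tested. Samples of the transgenes did not overlap in 4 members in numbers 1 to 4 (*Fgfr2*, *Spry1*, *Spry2* and *Etv5*) and in 4 in numbers 5 to 8 (*Egfr*, *Spry4*, *Dusp6* and *Etv4*), beside 19.6% and 24.8% of all genes tested. The difference of the fold change between the sets passed the test in 4 of 10 members (*Fgfr2*, *Fgfr3*, *Spry2* and *Etv5*), beside 9.44% of all genes tested, and in 5 with the block, which added *Spry1*, beside 10.4%. Between the sets within one transgene, 5 members passed the test in *GFP*-NSPCs (*Fgfr1*, *Spry4* and *Etv5* higher in numbers 5 to 8, *Fgfr3* and *Spry2* lower), beside 28.6% of all genes tested. In *Dbx2*-NSPCs 2 members passed (*Spry1* higher in numbers 5 to 8, *Fgfr3* lower), beside 17.5%. The comparisons within the 2 sets and between the sets share samples, and their values are given side by side for that reason.

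The genes whose profile over the 16 samples was most like that of a member were found by the root mean square difference of centred log2 values among 8642 genes. For *Egfr* the nearest were *Patz1*, *Sox8* and *Mis12*, at distances of 0.15, 0.16 and 0.17, where the profile of *Egfr* itself departed from flat by 0.30. The nearest to *Etv5* was *Srsf10* (0.13, against 0.39 from flat), to *Spry2* *Atp5f1* (0.13 against 0.31), to *Fgfr3* *Gm2a* (0.21 against 0.79) and to *Dusp6* *Polr2d* (0.24 against 0.54). *Hes1* was nearest to *Fgfr2* (0.35 against 0.73), *Prelid1* to *Fgfr1*, *Cd1d1* to *Spry1*, *Ndufc2* to *Spry4* and *Def8* to *Etv4*. Only genes outside the 10 were searched.

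Around the members, 140 other genes of the EGF and FGF pathways were listed by role, of which 111 were tested. Over all samples 19 of them passed the test (17.1%), close to the 15.8% of all genes tested; 16 were higher and 3 lower in *Dbx2*-NSPCs, beside 8.03% and 7.78% of all genes, and their list's median log2 fold change was 0.06. With the block 33 passed, 23 higher and 10 lower, beside 21.7% of all genes tested. The counts by role rest on few genes each, and they are descriptions.

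The largest fold change of the list was that of a ligand. *Fgf1*, a ligand that binds all FGF receptors, was at 5.33 to 29.0 CPM (median 13.1) in *GFP*-NSPCs and at 57.8 to 81.2 CPM (median 68.5) in *Dbx2*-NSPCs, without overlap. Its log2 fold change was 2.44 ± 0.28 (SE, limma, adjusted p = 6.9e-06), 3.35 within numbers 1 to 4 and 1.53 within numbers 5 to 8, and the difference of -1.83 passed the test (limma, adjusted p = 6.1e-06). *Hbegf*, a heparin-binding ligand of the EGF receptor, was at 34.9 to 91.6 CPM (median 61.0) in *GFP*-NSPCs and at 82.0 to 220.3 CPM (median 138) in *Dbx2*-NSPCs, higher by 1.16 ± 0.24 on the log2 scale (limma, adjusted p = 0.0025), at 1.12 and 1.21 within the sets. In all, 1 of 6 tested EGF family ligands (16.7%) and 1 of 4 tested FGF family genes (25%) passed, beside 15.8% of all genes tested. With the block 2 of the FGF family genes passed, 1 of them lower, beside 21.7% of all genes tested. The 4 were *Fgf1*, *Fgf2*, *Fgf11* and *Fgf14*, listed by family name and not by binding to a receptor. *Fgf2* did not exceed 2.71 CPM, *Egf* 5.02 CPM and *Tgfa* 5.24 CPM in any sample, and *Nrg3*, *Fgf10*, *Fgf13* and *Fgf20* were at 0 in all.

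Among other receptors, *Fgfrl1*, an FGF receptor relative without a kinase domain, rose by 0.84 ± 0.11 on the log2 scale (limma, adjusted p = 2.8e-05), from a range of 71.4 to 109.6 CPM to one of 115 to 181 CPM without overlap, and by 0.82 and 0.86 within the sets. *Erbb2* and *Erbb4* were tested and did not pass, and *Erbb3* and *Fgfr4* did not exceed 0.62 CPM. Tested co-receptors, heparan sulphate proteoglycans and the enzymes that modify heparan sulphate, which FGFs need to bind their receptors, numbered 19. Of these, 5 passed the test (26.3%, beside 15.8% of all genes tested), and all 5 were higher. The block called 6, all higher, beside 21.7% of all genes tested. The 5 included *Sdc4*, a syndecan (log2 fold change 1.19 ± 0.17, limma, adjusted p = 9.1e-05), and *Sulf1*, a heparan sulphate 6-O-endosulphatase (1.02 ± 0.23, limma, adjusted p = 0.0054). Also among them was *Hs6st2*, a heparan sulphate 6-O-sulphotransferase (2.14 ± 0.54, limma, adjusted p = 0.010). *Hs6st2* was at 0.65 to 4.43 CPM in *GFP*-NSPCs numbered 1 to 4, which is 2 to 11 reads, and at 19.0 to 31.3 CPM in the *Dbx2*-NSPCs of these numbers. Its fold change fell from 3.27 within numbers 1 to 4 to 1.01 within numbers 5 to 8, a difference of -2.26 (limma, adjusted p = 0.00068). *Sdc3*, another syndecan, went the other way, at -0.33 and 0.88 within the sets, with a difference of 1.21 (limma, adjusted p = 0.00012).

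Inside the cell, of 17 tested adaptors and exchange factors 1 passed, *Frs2*, the docking protein of FGF receptors, which fell by 0.57 on the log2 scale (limma, adjusted p = 0.0027; 0.099 when numbers 1 to 4 were fitted alone), from 36.0 ± 5.88 to 24.0 ± 2.86 CPM (SD, n = 8 each). *Grb2*, the adaptor that brings SOS to activated receptors, was at 98.7 ± 8.22 and 85.9 ± 9.63 CPM within numbers 1 to 4 and at 101 ± 8.62 and 148 ± 8.85 CPM within numbers 5 to 8 (SD, n = 4 each), and the difference of the fold change, 0.76, passed the test (limma, adjusted p = 0.0011). The 1 called of the 17 is 5.88%, beside 15.8% of all genes tested. The block called 4, all lower, beside 21.7% of all genes tested. Of 16 tested genes of the Ras, Raf, MEK and ERK core 2 passed (12.5%, beside 15.8% of all genes tested). With the block 3 passed, which added *Mapk3*, beside 21.7% of all genes tested. *Map2k2* (MEK2) fell by 0.51 on the log2 scale (limma, adjusted p = 0.00073), and *Rps6ka1*, an ERK-activated kinase, rose by 1.17 (limma, adjusted p = 0.034). *Rps6ka1* differed between the sets (0.55 and 1.79, difference 1.24, limma, adjusted p = 0.0022), and its call over all samples was lost in edgeR (0.87, adjusted p = 0.12), in DESeq2 (0.87, adjusted p = 0.14), without the trend in eBayes (limma, adjusted p = 0.055), when numbers 1 to 4 were fitted alone (limma, adjusted p = 0.11) and when any of 8 single libraries was left out (limma, adjusted p up to 0.070). *Mapk3* (ERK1) was at 0.37 over all samples (limma, adjusted p = 0.071; with the block, adjusted p = 0.030). It rose within numbers 1 to 4 by 0.66 (limma, adjusted p = 6e-05) and was at 0.08 within numbers 5 to 8, a difference of -0.58 (limma, adjusted p = 0.013).

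Of 22 other negative regulators tested, 3 passed (13.6%, beside 15.8% of all genes tested) and all 3 were higher. The block called 6, 4 higher and 2 lower, beside 21.7% of all genes tested. *Dusp5*, a nuclear ERK phosphatase, was at 5.54 to 16.4 CPM in *GFP*-NSPCs and at 15.96 to 40.18 CPM in *Dbx2*-NSPCs, a log2 fold change of 1.36 ± 0.23 (adjusted p = 0.00044 by limma). *Spred3*, a Sprouty-related inhibitor, and *Socs5*, which promotes EGF receptor degradation, changed by 0.59 (limma, adjusted p = 0.018) and 0.55 (limma, adjusted p = 0.0033). Within the sets, *Spred3* did not pass in numbers 1 to 4 (0.35, limma, adjusted p = 0.21) and *Socs5* did not pass in numbers 5 to 8 (0.30, limma, adjusted p = 0.17). Of 24 tested genes listed as other ERK-induced genes and ETS factors, 4 were higher and 1 was lower (20.8% called, beside 15.8% of all genes tested). With the block 8 were higher and 2 lower, beside 21.7% of all genes tested. The one that fell was *Etv1*, the third factor of the family of *Etv4* and *Etv5*, from 72.0 to 151 CPM (median 117) in *GFP*-NSPCs to 23.8 to 61.9 CPM (median 38.0) in *Dbx2*-NSPCs, a log2 fold change of -1.49 ± 0.21 (adjusted p = 6.6e-05 by limma). *Etv1* and *Etv5* therefore passed their tests within numbers 1 to 4 with opposite signs (-1.46 and 0.72). *Fosl2*, *Phlda3* and *Ccnd1* (cyclin D1) were higher by 1.04, 1.23 and 0.27 on the log2 scale (limma, adjusted p = 0.0015, 0.00016 and 0.017). *Phlda3* was placed in this list, but its induction by ERK is not established here, so its rise is not a readout of the pathway. The call of *Ccnd1* was lost with no filter on low values (limma, adjusted p = 0.099), and it missed the threshold within numbers 5 to 8 (0.23, limma, adjusted p = 0.10) and when numbers 1 to 4 were fitted alone (0.31, limma, adjusted p = 0.12).

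**Figure D4:**
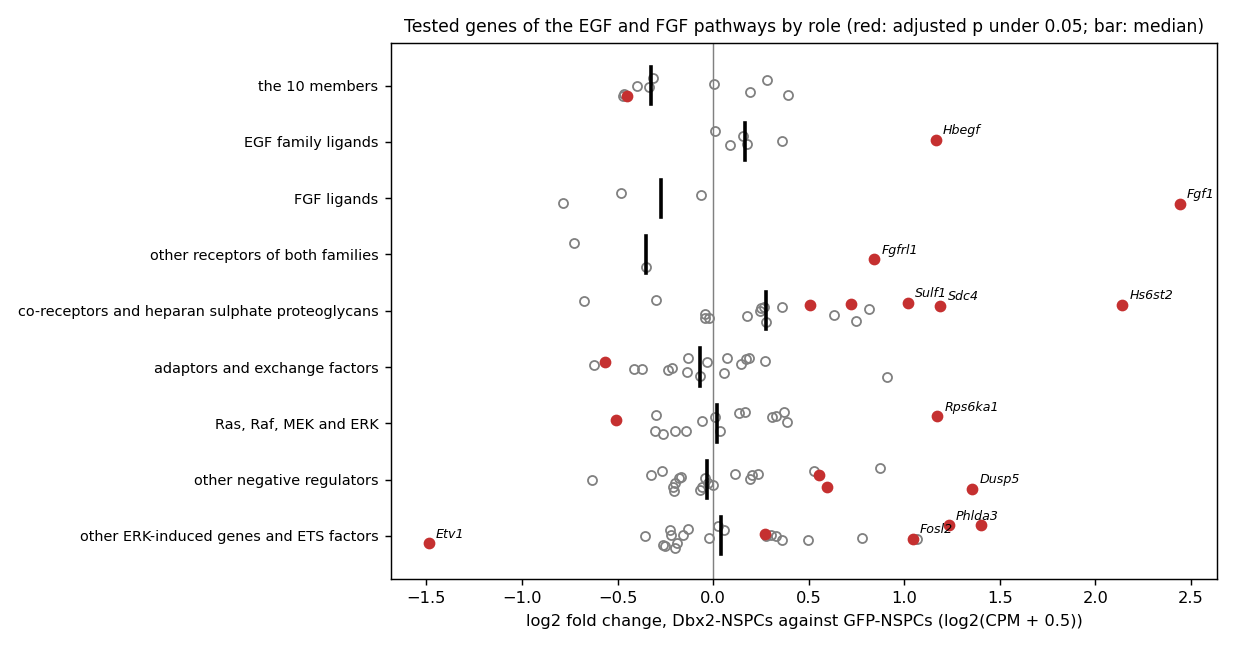
Log2 fold change of *Dbx2*-NSPCs against *GFP*-NSPCs over all 16 samples (x axis, on log2(CPM + 0.5)) for the 10 members and for the 111 tested pathway genes by role (rows; vertical position within a row is arbitrary); red points have an adjusted p under 0.05 and black bars are row medians. The 5 red points among co-receptors and heparan sulphate genes all lie above 0, and *Etv1* at -1.49 is the lowest point. Row names are those of the lists, and the roles were not tested.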

How the data were processed

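Single-end 101 bp QuantSeq 3′ reads from 100 ng of total RNA were processed by the authors (FastQC 0.11.8, STAR 2.5.0a and edgeR 3.36 on GRCm38, per the labels), and the deposited values are CPM per gene. CPM steps gave whole reads, within 0.1 of a read or 0.006 CPM, for 99.999% of values. The counter and its use of strand are not given in the sources used here, so reads of a gene and an antisense partner may not be told apart. From these values log2(CPM + 0.5) was fitted with limma 3.58.1 (R 4.3.3, eBayes with trend) over 12533 genes above 1 CPM in 4 or more samples, and p-values were adjusted by Benjamini-Hochberg over all of them, with calls at an adjusted p under 0.05. Fold changes are on the log2(CPM + 0.5) scale and understate those of low genes. The difference between sets was an interaction term, and values within sets came from that model. Recovered reads were also fitted with edgeR 4.0.16 and DESeq2 1.42.0, and alternatives included other pseudocounts, filters and scalings, covariates and each library left out. The fits were also run on simulated data, which held the same relative spread for every gene and no difference between the sets in *GFP*-NSPCs. That run cannot show how the fits behave with the set differences seen here.

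Same-numbered samples of the groups deviated together from their group means (correlation over genes 0.15 to 0.30 in the 8 pairs). The means were taken over both sets of numbers, so a difference between the sets that both groups share adds to these correlations. The closest sample of the other group was of the same set but often had another number. For *GFP*-NSPC number 8 it was *Dbx2*-NSPC number 6. Whether the numbers pair samples within a set is thus not settled. The replicate block is an alternative, printed beside the named genes whose call it changed. All pairs of samples within a group differed by more than sampling noise. The 10 members and all lists were chosen with earlier results of these data known. Of the pathway list, the text names in each role up to 3 called genes by size of change in each direction, and up to 6 genes whose difference between sets was called, by smallest p, where a group averaged 10 CPM or more. The gene nearest to a member in profile (3 for *Egfr*) was taken from genes averaging 10 CPM or more. Confidence intervals are 95%, and the floor of 3 reads covers counting error only.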

Additional observations from a re-analysis of the deposited data

Results flagged for a closer look

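Some samples lay far from the others of their group by Dixon's criterion, which was applied to the 10 genes in each group of 8 and each set of 4. It marked 5 of 60 groups, where chance marks about 1 in 20. *Fgfr2* in *GFP*-NSPC replicate 1 was at 14.91 CPM, beside 4.52 to 8.47 CPM in the other 7 samples of the group, and it was also marked beside the 7.66 to 8.47 CPM of its own set. *Egfr* in *GFP*-NSPC replicate 5 was at 304.8 CPM, beside 209.7 to 212.8 CPM in the other samples of its set. *Spry2* in *GFP*-NSPC replicate 1 was at 547.5 CPM, beside 443.1 to 454.2 CPM, and in *GFP*-NSPC replicate 7 at 342.9 CPM, beside 302.3 to 305.9 CPM.

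In some genes the effect of the transgene differed between the sets of replicate numbers, by an interaction term in limma over all genes tested. Among them were *Fgfr2* and *Spry2*, which were also marked above. The fold change within numbers 5 to 8 less that within numbers 1 to 4, on the log2 scale, was 1.861 for *Fgfr2*, 0.774 for *Fgfr3*, 0.6103 for *Spry2* and -0.6594 for *Etv5*. Among the other pathway genes it was -1.826 for *Fgf1*, -2.264 for *Hs6st2*, 1.244 for *Rps6ka1*, 1.207 for *Sdc3*, 0.7556 for *Grb2* and -0.5771 for *Mapk3*. The labels do not say which line a number belongs to, so line, batch and number cannot be told apart.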

How the results depend on the processing

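*Egfr* kept its direction and its call under all 30 alternatives, with log2 fold changes from -0.52 to -0.38. The number of the 10 members called over all samples was 1, beside 1982 of all 12533 genes tested. It became 5 with the replicate block (beside 2723 of all genes). With a covariate for the sets of replicate numbers it was 5 in limma (beside 3034) and 5 in edgeR (beside 2938). It was 3 when samples numbered 1 to 4 were fitted alone (beside 1950) and 4 when samples numbered 5 to 8 were (beside 2911). Leaving out each library in turn gave 1 to 2, beside 1684 to 2210 of all 12533 genes tested. The number of pathway genes called was 19. It became 33 with the replicate block and 33 in numbers 5 to 8 alone, and with the covariate 34 in limma and 34 in edgeR. In these settings the calls over all genes rose as well, as given above. The difference between the sets was called in 4 members, beside 1183 of all 12533 genes tested. Without the trend in eBayes it was called in 1 (*Etv5*), beside 1034. With 1 library left out it was called in 2 to 5, beside 1031 to 1307. The 2 came without *Dbx2*-NSPC replicate 7, beside 1037. The count of 5 within numbers 1 to 4 (beside 2563 of all genes) was also 5 without *Dbx2*-NSPC replicate 4 (beside 2429). That library was chosen after the data were seen, and *Fgfr1* took the place of *Fgfr2*.

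*Fgfr3*, near 0 over all samples, turned negative with a pseudocount of 2 (-0.000166), in numbers 1 to 4 alone (-0.383), in edgeR (-0.151), in edgeR with the covariate (-0.00886) and in DESeq2 (-0.147), and ranged from -0.167 to 0.158 with 1 library left out. In numbers 5 to 8 alone *Fgfr2* was at 0.614 and *Spry1* at 0.0621. Without *Dbx2*-NSPC replicate 4 *Dusp6* within numbers 1 to 4 was at 0.173. The difference between the sets for *Spry4* ranged from -0.311 to 0.0411 with 1 library left out. Beyond the alternative's own construction, the cause was not tested. The depth limits *Fgfr2* most, at 3 to 37 reads a sample.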
